A study of Brachypodium distachyon with 45 samples.

Results

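The expression of 4 genes was followed that are annotated to act on the side chains of xyloglucan or on xylan, the main matrix polysaccharides that run between cellulose microfibrils in plant cell walls. Bradi3g10230 and Bradi3g58040 are annotated in the study as putative xyloglucan fucosyltransferases of glycosyltransferase family GT37, Bradi1g64560 as a xyloglucan xylosyltransferase of family GT34, and Bradi3g04460 as an IRREGULAR XYLEM 15 (IRX15) like protein. The genes are called by these annotations below; no enzyme activity was measured. They were found by identifier in the deposited expression table, where each matched 1 of the 33852 loci, so that all 4 genes were measured. The name side-chain transferase fits the first 3 genes. IRX15 is known from Arabidopsis as a Golgi protein needed for normal xylan, and the study gives its Brachypodium relative no enzyme family.

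Xyloglucan is a glucan backbone to which xylosyltransferases add xylose in the Golgi. Galactose can then be added to some of these xylose residues, and fucosyltransferases cap the galactose with fucose; in Arabidopsis the enzymes of families GT34 and GT37 carry out the first and the last of these steps. In grass leaves xyloglucan is a minor polymer with little fucose, while xylan is the dominant matrix polysaccharide. Xylan is made in quantity in the secondary walls of xylem and fibres, where Arabidopsis mutants in IRX15 and its close relative have altered xylan chains.

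Leaf RNA of 3 inbred lines of the grass Brachypodium distachyon (Brachypodium) was sequenced: ABR8, labelled tolerant to drought, ABR4, labelled intermediate, and KOZ1, labelled susceptible. Plants of all lines were well watered for 32 days after germination, and leaves were then taken on day 0, before the drought (T0, watered plants only), and on day 4 (T1) and day 8 (T2) from plants without water (drought) and with water (control). Each line thus had 5 groups, the T0 control, the T1 drought and T1 control and the T2 drought and T2 control, each of them with 3 of the 45 libraries. The 3 lines are natural accessions with 1 line for each tolerance class, so a difference between lines cannot be told apart from a difference between classes. As many plants were harvested as libraries were made, which gives 1 plant for each library.

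Values are FPKM, counts of sequenced fragments scaled for transcript length and for the depth of the library, so levels can be set side by side between genes. The table has 1 FPKM value for each locus and group, pooled over its 3 libraries, with lower and upper 95% limits. Single libraries were not analysed here, and the number of reads behind a value is unknown. The limits stand for the error of each value throughout; whether they describe the mean of a group or a single library is not given in the sources used here. The gap between a value and its upper limit, read as that of a normal distribution, gave a standard error. For the 4 genes it ranged between 0.175 and 0.215 of the FPKM value for Bradi3g58040, between 0.262 and 0.733 for Bradi1g64560, between 0.269 and 0.365 for Bradi3g04460 and between 0.222 and 1.24 for Bradi3g10230. Bradi3g58040 was thus the most precisely measured of the 4 genes. Leaf RNA holds many cell types, and fewer cells of a type cannot be told apart from less RNA per cell. The gene annotated in the study as a RuBisCO carboxylase, Bradi5g04080, which marks photosynthetic leaf tissue, stood between 85.3 and 617 FPKM in the 15 groups and moved within the comparisons made below. In ABR8 it had 434 FPKM under drought against 136 FPKM in the control at T1, and 109 FPKM under drought against 320 FPKM in the control at T2. In ABR4 it had 617 FPKM under drought against 432 FPKM in the control at T1, and 507 FPKM under drought against 136 FPKM in the control at T2. In KOZ1 it had 425 FPKM under drought against 85.3 FPKM in the control at T1, and 231 FPKM under drought against 438 FPKM in the control at T2. Its drought difference thus ran in both directions, upward in 4 comparisons and downward in ABR8 and KOZ1 at T2, and its part in the results was not tested.

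A few features of the samples touch the results. The treatment field of 15 samples goes against their titles: those of the 12 ABR8 samples of T1 and T2, and those of the 3 KOZ1 T0 samples. The titles were used; under the treatment field every ABR8 drought difference below would change sign, and the KOZ1 T0 group would hold plants without water. The 79 loci that were higher under drought in both ABR4 and KOZ1 at T2 (unadjusted p) had median log2 changes of 0.10 in ABR8 at T1, with 46 of 76 above 0, and -0.05 at T2, with 35 of 77 above 0. The 76 loci that were lower in both had medians of -0.08 in ABR8 at T1, with 50 of 76 below 0, and -0.12 at T2, with 42 of 75 below 0. At T1 most loci of both sets ran the way the titles give, at T2 only those of the second set did, and all 4 medians were small. At an unadjusted p with a 2-fold change, 3 loci of the second set were higher and 2 lower in ABR8 at T1. At T2 it was 7 higher and 7 lower. For the first set it was 0 and 0 at T1, and 1 higher and 0 lower at T2. The T1 values rest on an ABR8 drought group that also held ABR4 transcripts, as given next. The T1 drought groups of ABR8 and ABR4 each held transcripts of the other line. Of 125 loci with at least 5 FPKM in the other 4 ABR8 groups and under 0.1 FPKM in the other 4 ABR4 groups, all 125 reached 0.1 FPKM or more in the ABR4 T1 drought group, at a median of 35.0% of their ABR8 T1 control level. In the opposite direction, 87 of 87 such ABR4 loci were present in the ABR8 T1 drought group at a median of 35.9% of their ABR4 T1 control level. For the KOZ1 T1 drought group the same check gave 0 of 123 ABR8 loci and 1 of 47 ABR4 loci. Loci of KOZ1 that ABR8 otherwise lacked reached 0.1 FPKM in the ABR8 T1 drought group in 48 of 79 cases. These were 47 of the 47 that ABR4 also expressed, 0 of the 30 that it lacked and 1 of the 2 that it expressed in only some groups. In the ABR4 T1 drought group it was 31 of 67. These were 31 of the 32 that ABR8 also expressed, 0 of the 30 that it lacked and 0 of the 5 that it expressed in only some groups. The KOZ1 T2 drought group had a summed FPKM of 479128, against 624700 to 759455 in the other 14 groups.

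All positions are in the v3.0 assembly. Bradi3g10230 (LOC100846004) lies on chromosome 3 from 8376028 to 8378550 and Bradi3g58040 (LOC100830642) on chromosome 3 from 57374642 to 57381448. Bradi1g64560 (LOC100835145) lies on chromosome 1 from 63961649 to 63964053 and Bradi3g04460 (LOC100835417) on chromosome 3 from 3065344 to 3067182. These are whole loci, exons and introns together. Bradi3g58040 differs from the other genes in its structure: its locus has 3 transcription start groups, whereas each of the others has 1, and a long non-coding RNA gene of RefSeq (LOC112271509, 57378601 to 57379694) lies within it. The sources used here do not say whether reads were counted by strand or how reads shared between similar genes were divided, so reads of that RNA and reads common to both fucosyltransferases cannot be told apart from those of the genes named.

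**Figure D1:**
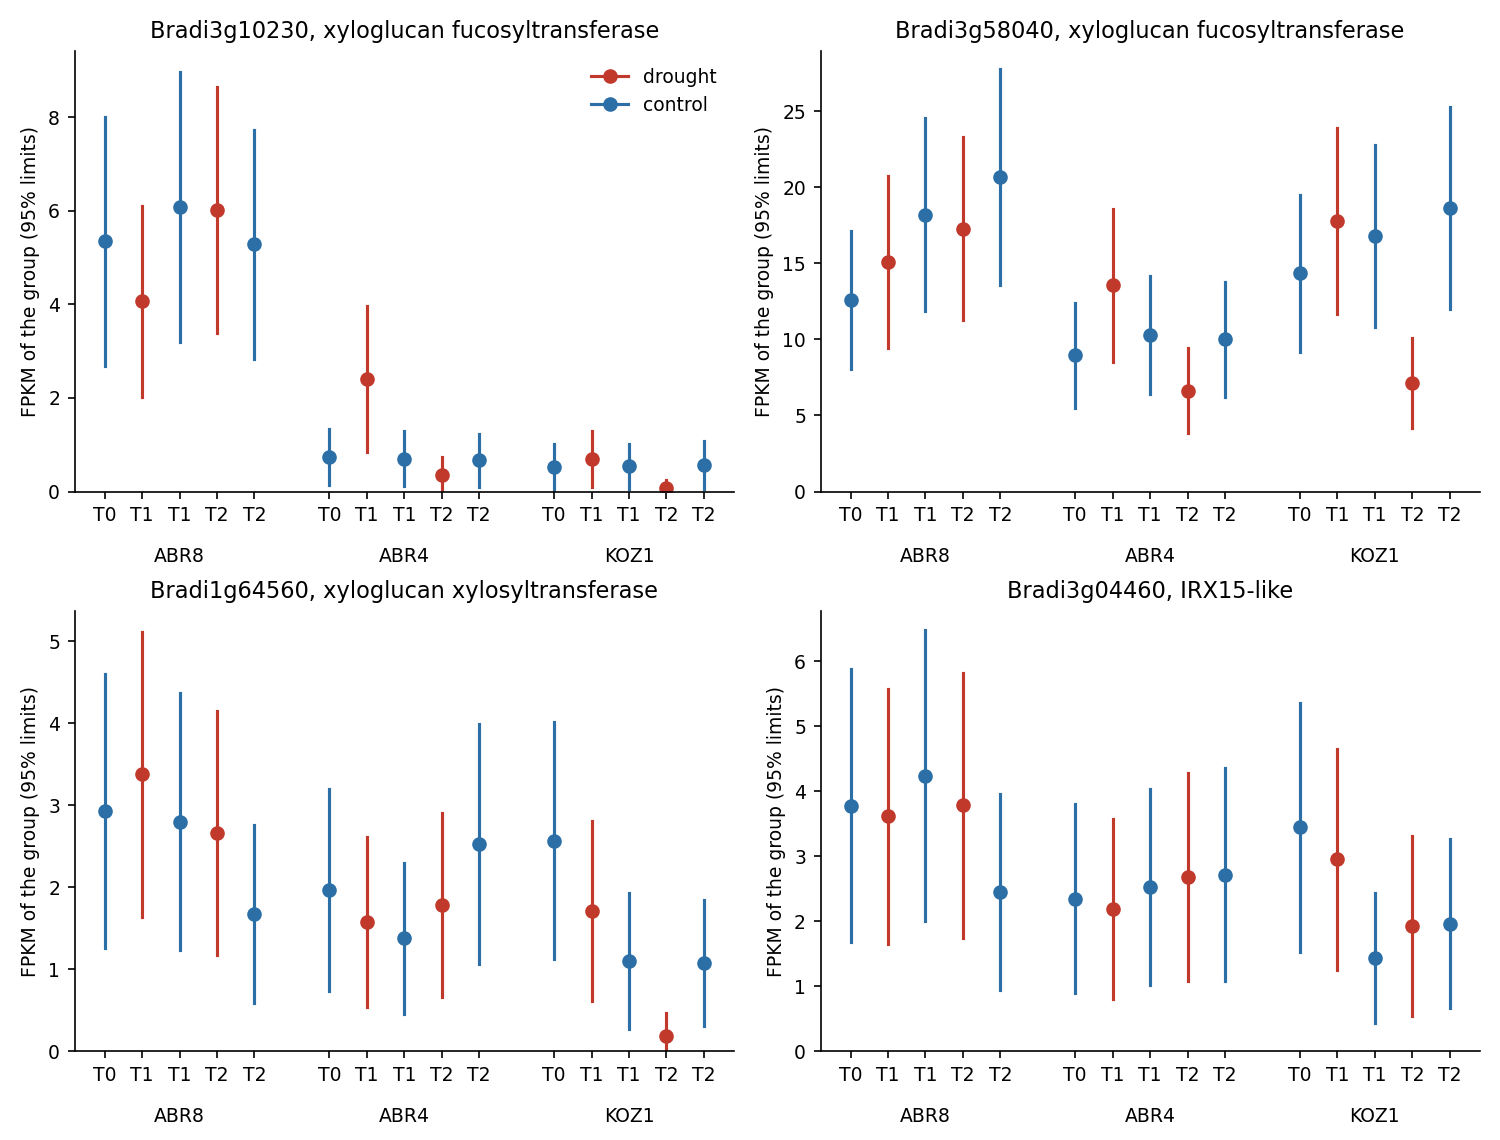
FPKM (vertical axis) of each of the 4 genes in the 15 groups, which run along the horizontal axis by line (ABR8, ABR4, KOZ1) and time; points are the deposited group values, vertical lines the 95% limits, red is drought and blue is control. Bradi3g10230 stands between 4.06 and 6.09 FPKM in ABR8 and below 1 FPKM in 9 of the other 10 groups, and the KOZ1 T2 drought group is the lowest of all for Bradi3g10230 and Bradi1g64560.

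Bradi3g10230, a putative fucosyltransferase gene, was expressed mainly in ABR8. In ABR8 it had 5.35 FPKM at T0, 4.06 FPKM under drought against 6.09 FPKM in the control at T1, and 6.02 FPKM under drought against 5.29 FPKM in the control at T2. In ABR4 it had 0.729 FPKM at T0, 2.41 FPKM under drought against 0.704 FPKM in the control at T1, and 0.351 FPKM under drought against 0.664 FPKM in the control at T2. In KOZ1 it had 0.520 FPKM at T0, 0.692 FPKM under drought against 0.543 FPKM in the control at T1, and 0.0701 FPKM under drought against 0.572 FPKM in the control at T2. Every ABR8 value was thus above every value of the other lines, watered or not.

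Averaged over the 5 groups of a line, Bradi3g10230 reached 5.36 FPKM in ABR8, 0.971 FPKM in ABR4 and 0.480 FPKM in KOZ1, ratios of 5.52 for ABR8 over ABR4 and 11.2 for ABR8 over KOZ1. Without the T1 drought groups the log2 ratio of ABR8 over ABR4 was 3.22, and with them 2.47. The limits of ABR8 lay above those of KOZ1 in all 5 matched groups, as they did for 345 of 29480 loci, or 1.17%. Against ABR4 they lay above in 4 of the 5 matched groups and overlapped at T1 drought. ABR8 limits lay above those of ABR4 for 4.67% of all loci at T0, 0.818% at T1 drought, 3.7% in the T1 controls, 3.57% at T2 drought and 2.99% in the T2 controls. The study drew the 4 genes from clusters of drought-responsive genes that were higher in ABR8 in these same libraries, so these levels describe the genes and are no test of a difference between the lines.

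The ABR4 T1 drought group stood apart for Bradi3g10230. Its 2.41 FPKM (95% limits 0.839 to 3.98) was 39.5% of the ABR8 T1 control level, beside the median of 35.0% for the 125 loci that otherwise lacked expression in ABR4. The ABR8 T1 drought group was the lowest of ABR8, at 66.7% of its own T1 control. The log2 change under drought in ABR4 at T1 was 1.77 (95% interval 0.26 to 3.29), with an unadjusted p of 0.0219 that did not hold after adjustment over all loci; at that threshold 1.33% of all loci were higher. It had the largest drought value above 0 among the 4 genes in the 6 comparisons. How much of this value comes from ABR8 transcripts in that group was not tested.

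Bradi3g58040, the other putative fucosyltransferase gene, was the most highly expressed of the 4 genes in every group. In ABR8 it had 12.6 FPKM at T0, 15.1 FPKM under drought against 18.2 FPKM in the control at T1, and 17.3 FPKM under drought against 20.7 FPKM in the control at T2. In ABR4 it had 8.95 FPKM at T0, 13.6 FPKM under drought against 10.3 FPKM in the control at T1, and 6.64 FPKM under drought against 9.999 FPKM in the control at T2. In KOZ1 it had 14.3 FPKM at T0, 17.8 FPKM under drought against 16.8 FPKM in the control at T1, and 7.15 FPKM under drought against 18.6 FPKM in the control at T2. KOZ1 was close to ABR8 in the 3 control groups and under drought at T1, and close to ABR4 under drought at T2.

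Means over the 5 groups were 16.8 FPKM in ABR8, 9.88 FPKM in ABR4 and 14.9 FPKM in KOZ1. The log2 ratio of ABR8 over KOZ1 was 0.17 over all groups and -0.19 at T0 alone, so Bradi3g58040 was not higher in ABR8 than in KOZ1 before the drought. The limits of ABR8 lay above those of ABR4, and above those of KOZ1, only at T2 drought. Across all 3 lines its levels spanned 3.12-fold. Those of Bradi3g10230 spanned 11.7-fold over the 13 groups whose lower limit was above 0, which leaves out the T2 drought groups of ABR4 and KOZ1.

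The balance between the fucosyltransferase genes differed between the lines. Bradi3g10230 made up between 20.4% and 29.8% of their summed FPKM in ABR8. In ABR4 it made up 15.1% at T1 drought and between 5.02% and 7.53% in the other 4 groups. In KOZ1 it made up 0.971% at T2 drought and between 2.98% and 3.75% in the other 4 groups. Bradi3g58040 was therefore the more abundant transcript of this pair in each line, by 2.35-fold to 3.91-fold in ABR8 and by at least 25.7-fold in KOZ1. Other fucosyltransferase genes were not examined here. The sum of both genes was 7.22 FPKM under drought against 19.2 FPKM in the control in KOZ1 at T2, and 23.3 FPKM under drought against 26.0 FPKM in the control in ABR8 at T2.

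**Figure D2:**
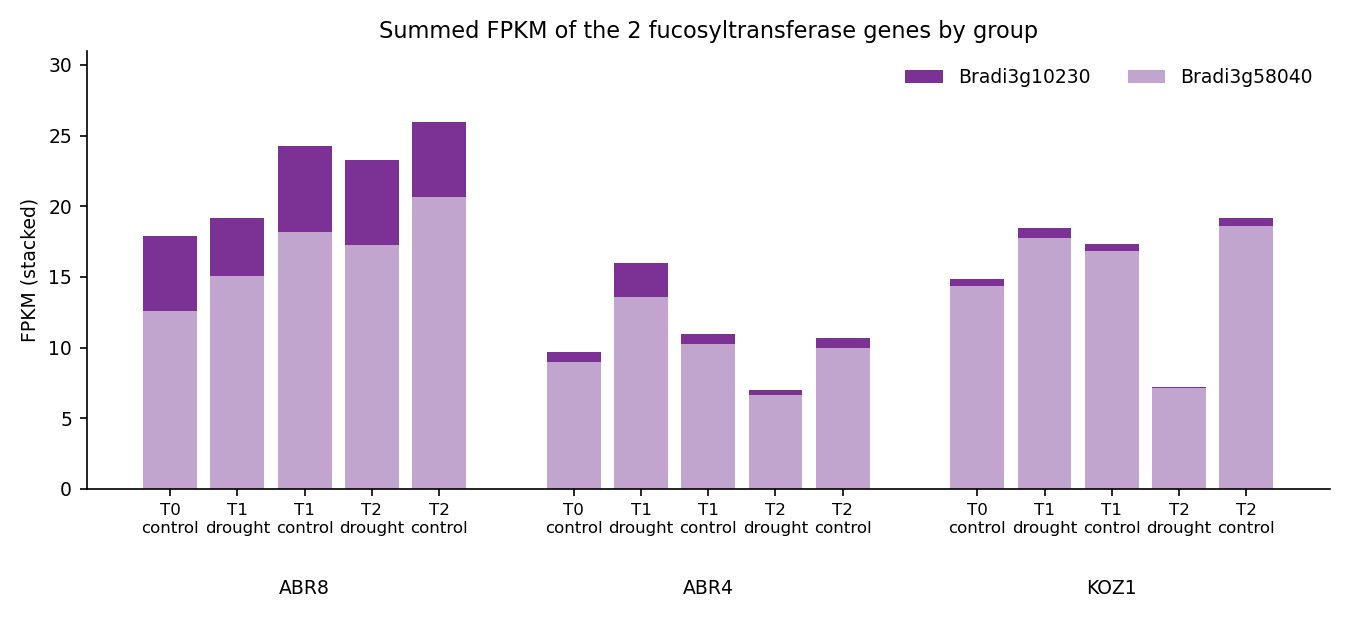
Stacked FPKM (vertical axis) of the fucosyltransferase genes Bradi3g10230 (dark) and Bradi3g58040 (light) in the 15 groups along the horizontal axis, by line and condition, as deposited group values without limits. The dark part takes 20.4% to 29.8% of the bar in ABR8 and at most 3.75% in KOZ1.

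Bradi1g64560, the xylosyltransferase gene, was expressed at low levels in all lines. In ABR8 it had 2.93 FPKM at T0, 3.38 FPKM under drought against 2.80 FPKM in the control at T1, and 2.67 FPKM under drought against 1.68 FPKM in the control at T2. In ABR4 it had 1.97 FPKM at T0, 1.58 FPKM under drought against 1.38 FPKM in the control at T1, and 1.78 FPKM under drought against 2.53 FPKM in the control at T2. In KOZ1 it had 2.57 FPKM at T0, 1.71 FPKM under drought against 1.10 FPKM in the control at T1, and 0.191 FPKM under drought against 1.07 FPKM in the control at T2. The droughted KOZ1 leaves at T2 were the lowest of the 15 groups, with a lower limit of 0 and an upper limit of 0.465 FPKM.

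The means of Bradi1g64560 were 2.69 FPKM in ABR8, 1.85 FPKM in ABR4 and 1.33 FPKM in KOZ1. At T0 the order was different, with 2.93 FPKM in ABR8, 1.97 FPKM in ABR4 and 2.57 FPKM in KOZ1, and all limits overlapped. ABR8 was below ABR4 in the T2 controls, at 1.68 FPKM against 2.53 FPKM. The limits of lines did not overlap only at T2 drought, where those of ABR8 and those of ABR4 lay above those of KOZ1. At T2 drought 8.31% of all loci had ABR8 limits above those of KOZ1, and 5.13% had ABR4 limits above those of KOZ1.

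At 2.94-fold, beside 3.12-fold for Bradi3g58040, the IRX15-like gene Bradi3g04460 had the narrowest span of FPKM over the 15 groups. In ABR8 it had 3.78 FPKM at T0, 3.61 FPKM under drought against 4.24 FPKM in the control at T1, and 3.79 FPKM under drought against 2.45 FPKM in the control at T2. In ABR4 it had 2.35 FPKM at T0, 2.18 FPKM under drought against 2.53 FPKM in the control at T1, and 2.68 FPKM under drought against 2.71 FPKM in the control at T2. In KOZ1 it had 3.45 FPKM at T0, 2.95 FPKM under drought against 1.44 FPKM in the control at T1, and 1.93 FPKM under drought against 1.97 FPKM in the control at T2. Its limits overlapped in all 105 pairs of groups, but overlapping limits do not show that levels were the same.

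The means of Bradi3g04460 were 3.57 FPKM in ABR8, 2.49 FPKM in ABR4 and 2.35 FPKM in KOZ1. By comparison, limits were apart in 47 of the 105 pairs for Bradi3g10230, in 14 for Bradi3g58040 and in 11 for Bradi1g64560. For Bradi3g10230, 45 of these pairs set an ABR8 group above a group of another line, and only 1 lay within a line. That pair was ABR4 T1 drought above ABR4 T2 drought, and its T1 drought group held ABR8 transcripts. Pairs were not counted over all loci, and the 4 genes were chosen for high levels in ABR8. The counts of pairs and the ratios therefore only describe these genes. When the 15 groups were ordered by level, neighbours in the order had overlapping limits for each of the 4 genes.

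Drought was compared with the control of the same line and time, the contrast the study was designed for, by a z-test of the log FPKM values. The p-values were adjusted over all loci (Benjamini-Hochberg), and a call needs an adjusted p up to 0.05 and a change of at least 2-fold. The test is a normal approximation that rests on the deposited limits, since pooled values allow no exact test over libraries. Of the 24 tests of the 4 genes, 1 was called: Bradi3g58040 fell in KOZ1 at T2. Its 7.15 FPKM under drought (95% limits 4.19 to 10.1) against 18.6 FPKM in the control (12.0 to 25.2) was 2.60-fold lower (95% interval 1.51 to 4.50), a log2 change of -1.38 with a standard error of 0.40 and an adjusted p of 0.0105. In that comparison 1201 of 26286 loci, or 4.57%, were called lower, and 8.34% were called in either direction. Because the study took the 4 genes from its drought-responsive genes, a call in 1 of the 6 comparisons is not independent evidence of a response. The call was lost when p-values were adjusted over all comparisons together (adjusted p of 0.0519). It was also lost when all groups were scaled to the same summed FPKM (log2 change -0.73, adjusted p of 0.223), a scaling that moved the median log2 change of all loci in KOZ1 at T2 to 0.71, from 0.059 in the deposited values. Relative to the median of all loci, which the scaling shifts by the same amount, the change was -1.44 on the log2 scale. The RuBisCO gene was also lower in these leaves, at 231 FPKM under drought against 438 FPKM in the control.

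Bradi1g64560 and Bradi3g10230 had larger but less precise differences in KOZ1 at T2. Bradi1g64560 had 0.191 FPKM under drought against 1.07 FPKM in the control, a log2 change of -2.49 with a 95% interval of -4.81 to -0.18 and an adjusted p of 0.235. Bradi3g10230 had 0.0701 FPKM under drought against 0.572 FPKM in the control, a log2 change of -3.03 with an interval of -6.76 to 0.70 and an adjusted p of 0.513. Neither passed the test, and at these low levels the intervals span several-fold. Bradi3g04460 had a log2 change of -0.03 with an interval of -1.43 to 1.38, and of 0.62 after scaling to the same sum.

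**Figure D3:**
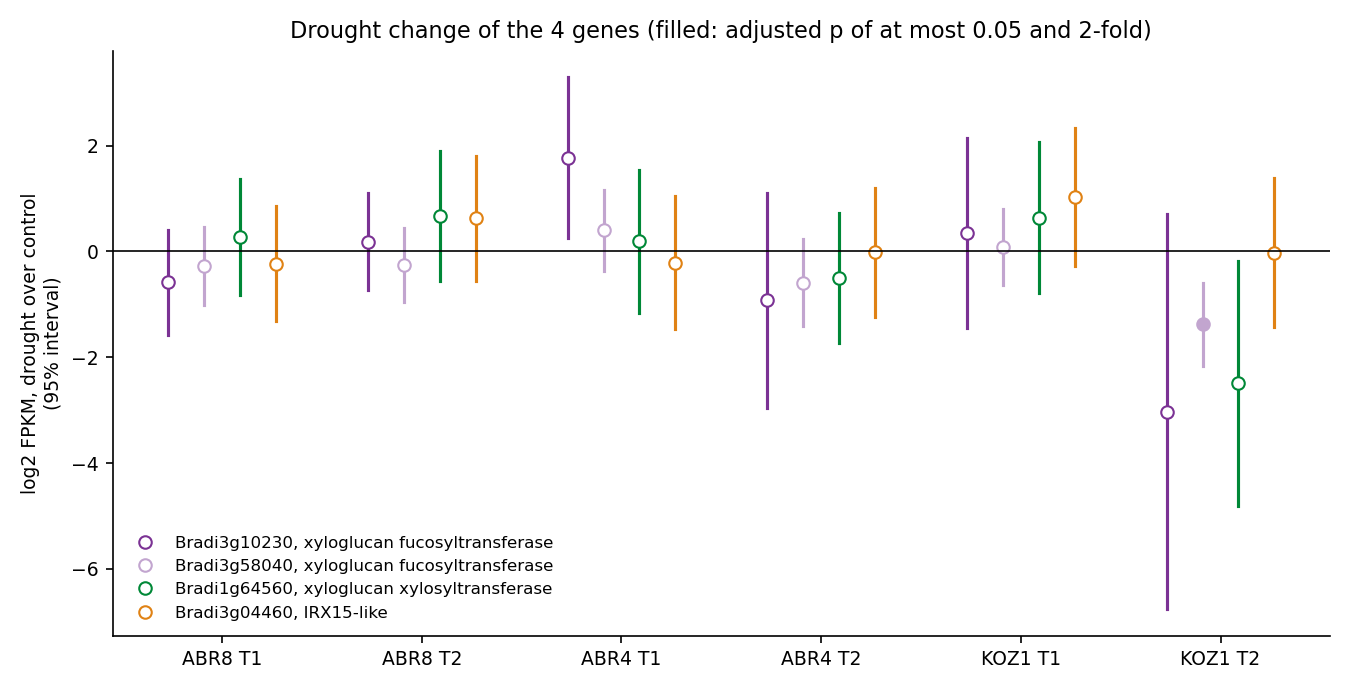
Log2 change of FPKM under drought relative to the control (vertical axis) of the 4 genes in each line at T1 and T2 (horizontal axis); vertical lines are 95% intervals from the authors' limits, and filled points pass the test. The only filled point is Bradi3g58040 in KOZ1 at T2, at -1.38, and the intervals of Bradi1g64560 and Bradi3g10230 beside it are wider.

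In ABR8 none of the 4 genes was called, with log2 changes between -0.58 and 0.27 at T1 and between -0.26 and 0.67 at T2. In ABR8 0.037% of all loci were called at T1 and 0.0382% at T2. The most precise gene, Bradi3g58040, had log2 changes of -0.27 (95% interval -1.01 to 0.47) at T1 and -0.26 (-0.96 to 0.45) at T2 in ABR8, so a 2-fold fall was at the edge of what these limits allow. Bradi3g10230 had -0.58 (-1.58 to 0.41) at T1 and 0.19 (-0.73 to 1.10) at T2. The T1 drought groups of ABR8 and ABR4 held transcripts of each other's line. Their part in the T1 changes of both lines was not tested. These misses of the threshold do not show that the genes kept their level in ABR8.

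In ABR4 none of the 4 genes was called either, and 0.234% of all loci were at T1 and 0.0698% at T2. At T2 in ABR4 the log2 changes were -0.92 for Bradi3g10230, -0.59 for Bradi3g58040, -0.50 for Bradi1g64560 and -0.02 for Bradi3g04460, which became 0.07 after scaling to the same sum. In KOZ1 at T1, where 0.459% of all loci were called, the log2 changes were 0.35 for Bradi3g10230, 0.08 for Bradi3g58040, 0.63 for Bradi1g64560 and 1.04 for Bradi3g04460. That of Bradi3g58040 became -0.03 after the same scaling. The 95% interval included 0 for each of the 4 genes in both comparisons. Without adjustment for the number of loci, 3 of the 24 tests passed: Bradi3g10230 in ABR4 at T1, and Bradi3g58040 and Bradi1g64560 in KOZ1 at T2, where 6.94% of all loci were lower by the same rule.

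The difference between the drought responses of 2 lines was tested directly, and 0 of 24 tests of the 4 genes were called by the z-test, with 3 passing at an unadjusted p. Over all loci 0.0976% were called at T1 and 0.0634% at T2 for ABR8 against ABR4, 0.301% at T1 and 4.95% at T2 for ABR8 against KOZ1, and 0.151% at T1 and 2.23% at T2 for ABR4 against KOZ1. For Bradi1g64560 the response at T2 was higher in ABR8 than in KOZ1 by 3.16 on the log2 scale (95% interval 0.54 to 5.78, unadjusted p of 0.0182, adjusted p of 0.217). For Bradi3g58040 it was higher by 1.12 (0.06 to 2.18, unadjusted p of 0.0375, adjusted p of 0.35). Among all loci 7.1% were higher in this comparison at the unadjusted p and 3.27% at the adjusted p, and the fall of Bradi3g58040 in KOZ1 was not shown to differ from its change in ABR8. The third was Bradi3g10230 at T1, where the response in ABR8 minus that in ABR4 was -2.36 with an unadjusted p of 0.0109, beside 0.861% of all loci that were lower by that rule. Both T1 drought groups behind it held transcripts of the other line.

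In watered leaves over the 8 days, 0 of 36 tests of the 4 genes between time points were called by the z-test, and 0 passed at an unadjusted p with a 2-fold change. The largest differences were in KOZ1. There Bradi1g64560 had 1.10 FPKM at T1 against 2.57 FPKM at T0, and Bradi3g04460 had 1.44 FPKM at T1 against 3.45 FPKM at T0, log2 changes of -1.22 and -1.26. Both fucosyltransferase genes differed little over the same days in KOZ1, with log2 changes of 0.06 for Bradi3g10230 and 0.23 for Bradi3g58040. In ABR8 0.257% of all loci were called at T1 over T0, 0.272% at T2 over T1 and 2.45% at T2 over T0. In ABR4 these shares were 0.285%, 0.0387% and 1.25%, and in KOZ1 1.21%, 0.0925% and 1.93%. The T1 and T2 controls also serve the drought comparisons, so the comparisons share values: the log2 change of 1.04 for Bradi3g04460 in KOZ1 at T1 was taken against the lowest of its 15 groups.

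Other genes of matrix polysaccharide synthesis and turnover were taken from the same cell wall list of the study, 20 genes with 21 loci: xyloglucan endotransglucosylase/hydrolases of family GH16, which cut and rejoin xyloglucan, other glycosyltransferases, nucleotide sugar epimerases, hydrolases of xylan and of side chains, trichome birefringence-like genes and the mixed-linkage glucan synthase CslF6. The study drew this list from its drought-responsive genes, for high levels in ABR8, in these same samples. Its counts below, also beside the share of all loci, are therefore not independent evidence of a response or of a direction. In KOZ1 at T2, 4 of the 21 loci were called lower and 0 higher, where 4.57% of all loci were called lower and 8.34% in either direction. Of the 21 loci 14 lay below 0 and 7 above, with a median log2 change of -0.92 beside 0.059 over all loci. The epimerase group, which supplies sugar nucleotides, had 2 of 3 loci called lower, GH16 had 1 of 4 and the hydrolases had 1 of 5, beside the 4.57% of all loci. None of the 6 loci of other glycosyltransferases was called, which at that share of all loci tells nothing about them.

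The beta-xylosidase gene Bradi4g20197, which trims xylose from wall polymers, had 1.98 FPKM under drought against 13.3 FPKM in the control in KOZ1 at T2, 6.74-fold lower with an adjusted p of 4.15e-05. The UDP-glucuronate epimerase genes Bradi4g34430 and Bradi3g53830, of the kind that supplies precursors for pectin, were 6.61-fold lower with an adjusted p of 0.00472 and 3.82-fold lower with an adjusted p of 0.0035. The GH16 gene Bradi3g18590 had 18.2 FPKM under drought against 46.7 FPKM in the control and was 2.57-fold lower with an adjusted p of 0.00776. CslF6 (Bradi3g16307), which makes the mixed-linkage glucan typical of grass walls, had a log2 change of 0.97 in the same leaves with an adjusted p of 0.0992. In the other 5 comparisons 0 of the 21 loci were called by the z-test in either direction; at an unadjusted p some passed. In KOZ1 at T1, 8 of 21 were higher and 2 were lower, beside 0.997% and 1.1% of all loci. In ABR4 at T2, 5 of 21 were lower, beside 0.551% of all loci, and in ABR8 at T2, 4 of 21 were higher, beside 0.37%. The controls behind these counts had also moved. In KOZ1 controls at T1 relative to T0 the list had a median log2 change of -1.50, beside 0.02 over all loci. At T2 relative to T1 it was -0.64 in ABR8 controls and 0.43 in ABR4 controls, beside 0.009 and -0.01 over all loci. The part of the control levels in these counts was not tested. In ABR4 at T1 1 of 21 was higher, beside 1.33% of all loci, and in ABR8 at T1 0 passed. The 1 locus, of the glycosyltransferase gene Bradi1g20890, had 1.79 FPKM under drought against 0.338 FPKM in the control. Its level in the ABR8 T1 control was 5.80 FPKM. The T1 drought groups of ABR4 and ABR8 held transcripts of each other's line, whose part in these values was not tested.

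**Figure D4:**
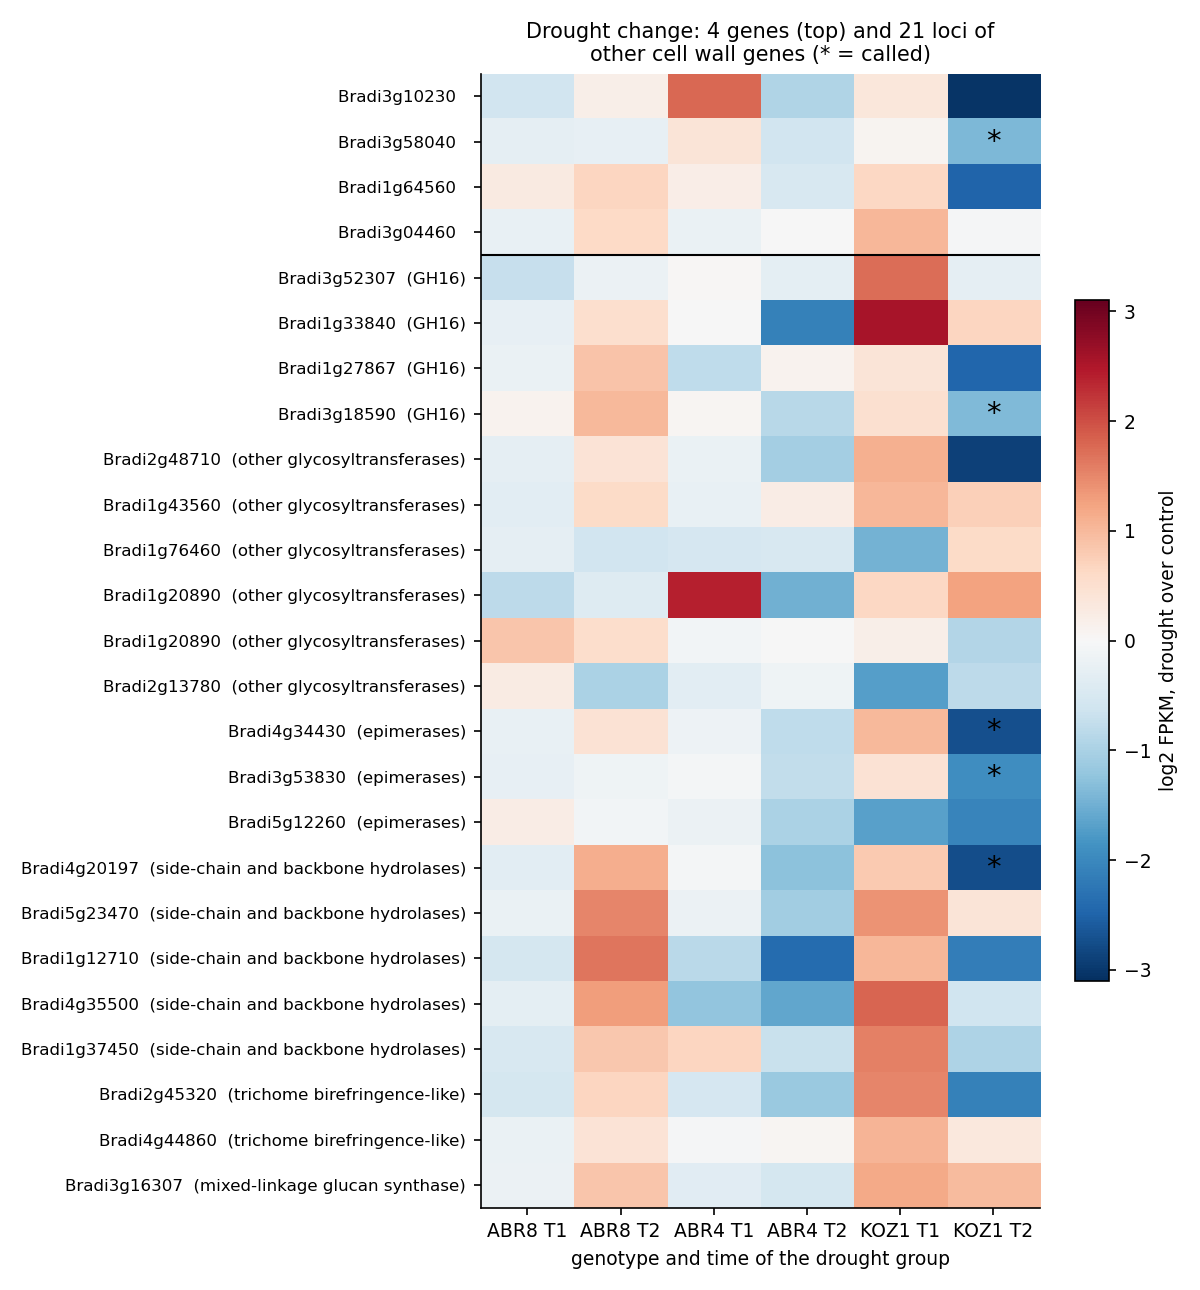
Log2 change of FPKM under drought relative to the control (colour, red higher and blue lower) for the 4 genes above the line and the 21 loci of other cell wall genes below it (rows), in each line at T1 and T2 (columns); stars mark called changes. All 5 stars lie in the KOZ1 T2 column, on blue cells.

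The list also differed over time in watered leaves, where the 4 genes had no calls. In KOZ1 controls at T1 relative to T0, 8 of the 21 loci were called lower and 0 higher, with a median log2 change of -1.50 beside 0.02 over all loci, of which 0.854% were called lower. At T2 relative to T0, 9 of 21 were called lower in KOZ1 (median -1.58, with 1.33% of all loci) and 6 of 21 in ABR8 (median -0.82, with 1.54% of all loci). In ABR4 0 of 21 were called by the z-test at T2 relative to T0, and 0 passed at the unadjusted p. The treatment field of the KOZ1 T0 samples goes against their titles, and its part in these values was not tested.

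The genes whose levels ran most like each of the 4 across the 15 groups were found by Pearson's r of log2(FPKM + 1) over 15940 loci; groups of a line share their genotype, so r is a description. Bradi3g10230 ran most like Bradi1g43110 and Bradi3g07988 (r = 0.991 each) and Bradi2g08230 (r = 0.988). Bradi3g58040 ran most like Bradi1g43705 (r = 0.967), Bradi3g20660 (r = 0.935) and Bradi1g25810 (r = 0.924). Bradi1g64560 ran most like Bradi2g50250 (r = 0.955), the beta-xylosidase gene Bradi4g20197 (r = 0.951) and Bradi5g08490 (r = 0.951). Bradi3g04460 ran most like Bradi1g66700 (r = 0.956), Bradi2g18447 (r = 0.935) and Bradi2g04847 (r = 0.932). None of the 4 genes was among the 3 nearest of another.

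Among themselves, the xylosyltransferase gene Bradi1g64560 and the IRX15-like gene Bradi3g04460 were the most alike, with r = 0.803. The fucosyltransferase genes had r = 0.553 with each other, and Bradi3g58040 had r = 0.303 with Bradi1g64560 and r = 0.198 with Bradi3g04460. The 15 groups share their lines, and the differences between these values of r were not tested.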

How the data were processed

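The deposited table holds FPKM values per locus and group, which the authors made by trimming reads with trim galore 0.4.1 (quality 28), mapping with TopHat 2.1.1 and Bowtie2 2.2.9 to the v3.0 genome, annotation v3.1, and running Cufflinks and Cuffdiff 2.2.1, pooling the 3 libraries of a group; all values had the status OK. Limits of FPKM below 0 are listed at 0. Because single libraries were not analysed here, p-values rest on the authors' limits and not on a spread between replicates.

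Pairs of groups were compared by a z-test on ln FPKM, or on FPKM itself for a locus at 0 in either group, adjusted by Benjamini-Hochberg within each comparison. The differences between responses used loci above 0 in all 4 groups. The named genes were the 4 genes in full, the list's loci called under drought, and for each of the 4 genes the 3 loci most like it among loci that reached 1 FPKM in at least 5 groups. CslF6 and Bradi1g20890 were named after their values were seen. The genes and lists were chosen with earlier results of these data known. Tests were checked on simulated normal values with standard errors taken from the deposited limits. That check cannot show what the limits describe or whether the normal approximation holds. Symbols and RefSeq coordinates came from RefSeq's v3.0 gene table; starts were moved to counting from 1. Python 3.11.15, numpy 2.4.6, scipy 1.17.1, pandas 2.3.3 and matplotlib 3.10.9 were used.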

Additional observations from a re-analysis of the deposited data

Results flagged for a closer look

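None of the 4 genes differed in its drought response between lines at the adjusted threshold, but 5 differences among the other cell wall genes did, by the test of the difference itself. All 5 were at T2, with the response higher in ABR8. Against KOZ1, where 3.27% of all loci were higher in this way, 4 of the 21 loci were called and 0 were lower. The study drew these loci from drought-responsive genes that were higher in ABR8 in the same libraries. The counts are therefore not independent evidence of a difference between the lines. The beta-xylosidase gene Bradi4g20197 differed by 3.88 on the log2 scale (95% interval 2.55 to 5.20), with 71.8 FPKM under drought against 32.9 FPKM in the control in ABR8, and 1.98 FPKM under drought against 13.3 FPKM in the control in KOZ1. Its highest level over the 15 groups was 79.9 FPKM. In ABR8 controls at T2 relative to T1, all 5 hydrolase loci were lower at the unadjusted p, this gene included. Their median log2 change was -1.64, beside 0.009 over all loci, and its part in the difference was not tested. The GH16 genes Bradi1g27867 and Bradi3g18590 differed by 3.33 and 2.37, and the epimerase gene Bradi4g34430 by 3.17. Bradi1g27867 was named after its values were seen. It had 11.0 FPKM under drought against 5.95 FPKM in the control in ABR8, and 0.603 FPKM under drought against 3.29 FPKM in the control in KOZ1. Its ABR8 level at T0 was 14.5 FPKM. Bradi3g18590 had 201 FPKM at T0 in ABR8, with 202 FPKM under drought against 100 FPKM in the control at T2. For both GH16 genes the ABR8 T2 control thus stood below T0, and the drought level was near or below T0. Against ABR4, where 0.0634% of all loci were called, Bradi4g20197 alone of the 21 loci differed, by 2.40, with 15.8 FPKM under drought against 38.1 FPKM in the control in ABR4. The titles were used for the ABR8 groups, whose treatment field goes against them, and the part of that conflict in these values was not tested.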

How the results depend on the processing

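No paired analysis was possible because the values used here are pooled over the libraries of a group; single libraries were not analysed here, so none was left out in turn. Of the 4 genes, 1 drought test was called; 0 were with the adjustment over all comparisons together, at least 4-fold or groups scaled to the same sum, 3 at the unadjusted p, and 4 if the limits are read as the spread of 1 library. Bradi3g58040 in KOZ1 at T2 had an adjusted p of 0.0519 over all comparisons, and its call held with a test on the difference in FPKM, limits that do not overlap, FPKM of at least 1, pseudocount 1 and a common median. For the other cell wall loci the 4 calls became 28 at the unadjusted p, 11 with limits not overlapping, 2 at 4-fold, 7 with pseudocount 1 and 30 with limits as the spread of 1 library. These counts are over 21 loci in 6 comparisons. A looser rule also adds calls over all loci: in KOZ1 at T2, 4.57% were lower at the adjusted p and 6.94% at the unadjusted p. For the other settings just named the share of all loci is not given, so the counts only describe how the calls move. Calls of differences between responses went to 3 at the unadjusted p and 4 with limits as the spread of 1 library, and calls over time in watered leaves to 3 with the latter reading. Scaling to the same sum changed the calls of all loci in KOZ1 at T2 to 3517 higher and 545 lower, beside 991 and 1201 in the deposited values; a common median gave 838 and 1402. The sum scaling reversed values that were not called: for Bradi3g04460, 0.0656 in ABR4 at T2 and 0.62 in KOZ1 at T2 under drought, and for differences between responses 0.0215 (ABR8 against ABR4 at T1), -0.18 (ABR8 against KOZ1 at T2) and -0.56 (ABR4 against KOZ1 at T2); for Bradi3g58040, -0.0321 under drought in KOZ1 at T1 and -0.0198 for T2 over T1 in KOZ1 controls; for Bradi3g10230, -0.0927 for T2 over T1 and -0.0459 for T2 over T0 in KOZ1 controls. The common median gave reversed values of 0.0294 for Bradi3g10230 (ABR8 T2 over T0), 0.0191 for Bradi3g58040 (ABR4 T2 over T1) and 0.00853 for Bradi1g64560 (KOZ1 T2 over T1). Log2 ratios between lines moved for Bradi3g10230 with pseudocount 1, to 1.69 for ABR8 over ABR4 and 2.104 for ABR8 over KOZ1, and without the T1 drought groups, to 3.22 for ABR8 over ABR4. At T0 alone they moved to -0.19 for Bradi3g58040 and 0.19 for Bradi1g64560 (ABR8 over KOZ1), and to -0.38 for Bradi1g64560 and -0.55 for Bradi3g04460 (ABR4 over KOZ1). The causes were not tested.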
